A study of Homo sapiens with 4 samples.

Results

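The endoplasmic reticulum (ER) folding and quality control genes examined here are the chaperones, disulfide enzymes, stress sensors, translocation subunits and ER-associated degradation (ERAD) factors through which secreted and membrane proteins pass. They were chosen by symbol from a list of 44 genes, without DNAJ co-chaperones, and kept where the table had a row of type protein-coding. In all, 43 genes with 104 protein-coding transcripts were found, of 12120 genes with 26348 such transcripts in the table. DERL3, an ERAD membrane protein, had no row of any type. The libraries come from the human breast cancer line MDA-MB-231, an established triple-negative line kept in DMEM with fetal bovine serum and treated for 24 h with DMSO (2 libraries) or with 10 µM KH-3 (2 libraries). KH-3 is a hydroxamic acid found in a screen for compounds that block RNA binding by HuR, a protein that binds AU-rich elements of mRNA, and DMSO is its solvent. Apart from the treatment the groups carry no other agent or genetic change in the labels.

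The measurement is 1 mean normalized read count per transcript, which the authors averaged over libraries. It therefore mixes treated and untreated cells, and a methods section that also names a lower KH-3 dose does not say which libraries entered the mean. No value per library was at hand, so depth, replicate spread and the difference between KH-3 and DMSO are not described, and no value below has an error. The means of all 43596 transcripts listed sum to 12267196, and the lowest one listed is 7.34. To set genes side by side, each mean was divided by the transcript's length in kb and summed over the protein-coding transcripts of the gene, which is termed the level. The median level of all 12120 genes was 117 per kb, and the top 10% began at 716 per kb.

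The cell line's labels were set against marker genes. Among the mesenchymal genes, VIM had a level of 3786 per kb, AXL of 2814 and CAV1 of 2599, while CD44 had 427 and SPARC 84.0. The estrogen and progesterone receptor genes ESR1 and PGR and the epithelial cadherin gene CDH1 had no protein-coding row, and ERBB2 had 24.1 per kb. Of the other 4 luminal genes, KRT18 had 3542 per kb, KRT8 331, EPCAM 43.3 and GATA3 29.5. Of 5 blood and endothelial genes, PTPRC, CD3E and CD14 had no protein-coding row, and PECAM1 with 4.08 and VWF with 1.82 per kb lay in the lowest percentiles.

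As background, nascent chains enter the ER through the SEC61 channel, lose their signal peptide, and fold with the help of HSP70, HSP90 and lectin chaperones and protein disulfide isomerases. When unfolded chains build up, the sensors IRE1, ATF6 and PERK start the unfolded protein response, whose transcription factors bind ER stress response elements (ERSE) in the promoters of chaperone genes. Chains that fail to fold are sent back to the cytosol, ubiquitinated and pulled out of the membrane by VCP for the proteasome.

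The promoters were searched first for this element, since the search makes no use of the read counts. RefSeq promoter windows (250 bases before to 50 bases after an annotated start, GRCh38.p14) were found for 39 of the 44 genes, and PDIA3, DERL1, DERL3, UFD1L and SPCS1 had no entry. ERSE was spelled as CCAAT, 9 bases of any kind, then CCACG, and sought on both strands. It occurred in 7 of the 39 genes (17.9%), against 25 of all 27305 genes with a window (0.0916%) and 16 of the 9485 genes that are also in the table (0.169%). The shorter ERSE-II, spelled ATTGG, 1 base, then CCACG, occurred in 3 other genes of the list (7.69%), against 0.0696% of all genes. Together 10 of 39 genes (25.6%) held 1 of the elements, against 44 of 27305 (0.161%). The genes were listed for known roles in this pathway, so these shares are a description.

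The matches are shown 5′ to 3′ on the strand that reads CCAAT or ATTGG first, with 5 bases on either side and the fixed letters in capitals, since these letters define the match.
HSPA5, chr9:125241386-125241414, minus strand: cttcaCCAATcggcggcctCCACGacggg
HSP90B1, chr12:103930211-103930239, plus strand: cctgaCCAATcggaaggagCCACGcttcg
HSP90B1, chr12:103930316-103930344, minus strand: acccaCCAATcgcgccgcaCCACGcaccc
CALR, chr19:12938379-12938407, minus strand: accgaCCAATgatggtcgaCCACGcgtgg
CANX, chr5:179698773-179698801, plus strand: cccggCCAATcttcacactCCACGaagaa
PDIA6, chr2:10812848-10812876, minus strand: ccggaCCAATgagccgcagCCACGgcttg
XBP1, chr22:28800598-28800626, minus strand: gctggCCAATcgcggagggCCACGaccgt
CRELD2, chr22:49918549-49918577, minus strand: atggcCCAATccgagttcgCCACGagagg
HYOU1, chr11:119057269-119057289, plus strand: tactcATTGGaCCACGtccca
HYOU1, chr11:119057375-119057395, plus strand: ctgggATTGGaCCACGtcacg
HERPUD1, chr16:56932020-56932040, plus strand: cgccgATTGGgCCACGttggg
SDF2L1, chr22:21642109-21642129, minus strand: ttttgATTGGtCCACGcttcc

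All 12 matches began before the annotated start that their promoter window was built on, at distances from -225 bases in CALR to -9 bases in CANX. This start is not always the outermost one of the gene, since 33 of the 51 windows of the list lay at the RefSeq gene start. In HSP90B1, CANX, PDIA6 and CRELD2 the matches lay inside the full annotated span of the gene. HSP90B1 and HYOU1 held a pair of matches each, and in HSP90B1 they faced in opposite directions. The UPRE, spelled TGACGTGG, was found in 5 of 39 genes (12.8%), namely HYOU1, SEC62, SSR3, SSR4 and VCP, against 0.927% of all genes. In HYOU1 it overlaps the second ERSE-II shown above. No match in the other windows says only that these letters are absent there.

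**Figure D1:**
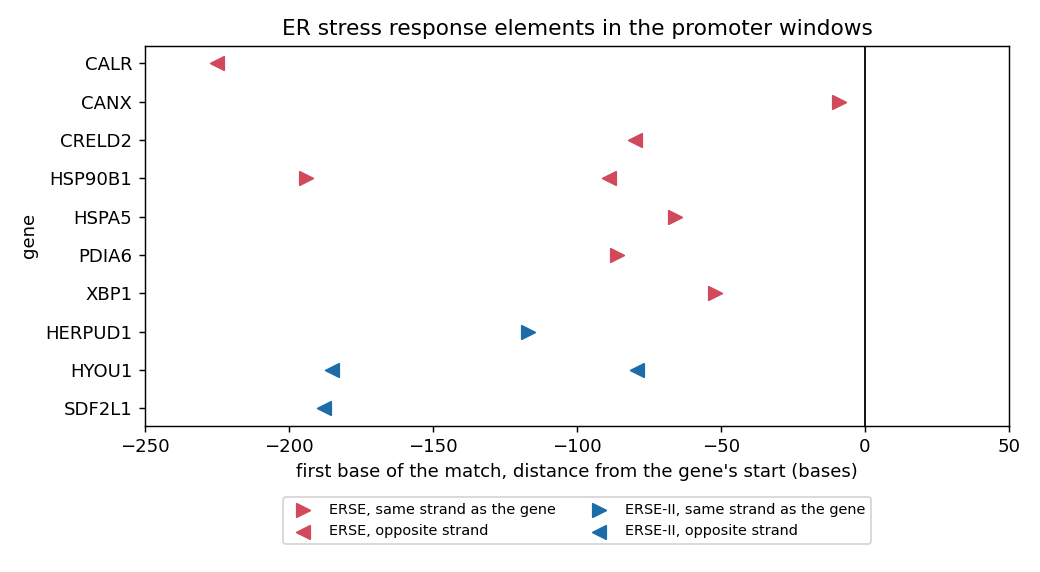
Position of each ERSE (red) and ERSE-II (blue) match, as the distance in bases of its first base from the annotated start of its promoter window (vertical line), for the 10 genes that hold one. This start is not always the outermost start of the gene. Arrows to the right read in the direction of the gene and arrows to the left against it, and all 12 matches begin before the start of their window, from -225 to -9 bases.

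Of the 43 listed genes, 37 had a level above the median of all genes (86.0%) and 20 lay in the top 10% (46.5%). Their median level was 555 per kb, at percentile 86.6 of all genes, and the highest was 197 times the lowest. They made up 0.355% of the genes and 1.17% of the summed protein-coding read count.

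The 7 chaperones of the lumen and the ER membrane all lay above the median of all genes, and 5 lay in the top 10%. CALR, a calcium-binding lectin chaperone that holds newly made glycoproteins, had the highest level of the list with 7981 per kb. Its membrane-bound relative CANX had 5858 per kb. HSPA5 (BiP), the HSP70 of the ER and the repressor of the stress sensors, had 3745 per kb from a single listed transcript, HSPA5-001. These 3 genes stood at percentiles 99.6, 99.4 and 99.0 and, by protein-coding transcripts, apart from the other 4 chaperones. HYOU1, a large HSP70 relative that helps HSPA5 exchange its nucleotide, had 935 per kb. HSP90B1 (GRP94), the HSP90 of the ER, had 894 per kb from protein-coding transcripts. SDF2L1, a small partner of the HSP40-HSPA5 system, had 369 per kb, and SIL1, another nucleotide exchange factor of HSPA5, had 238 per kb. HYOU1, SDF2L1 and SIL1, which serve HSPA5, were thus listed at levels well under that of HSPA5 itself. The DNAJ co-chaperones were not part of the list.

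Among the 5 genes of disulfide bond formation, P4HB, the classical protein disulfide isomerase, had 2601 per kb, and PDIA4, an isomerase with an additional active domain, had 2406 per kb. ERO1A, the oxidase that recharges the isomerases, followed with 765 per kb. PDIA6, an isomerase that also acts on the IRE1 sensor, had 427 per kb. PDIA3, the isomerase that works with CALR and CANX on glycoproteins, had only 134 per kb from its single protein-coding transcript, far below its partners CALR and CANX. Most of its reads had been given to another type of transcript.

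The 2 small secreted ER stress proteins had the lowest median of the roles by protein-coding transcripts, 82.0 per kb. With all types their median was 1549, above the 246 of the sensors and transcription factors and the 350 of ERAD. That median rests on MANF with 2998 per kb, since CRELD2 had 98.9, below the median of 157 for all genes with all types. By protein-coding transcripts MANF had 96.7 per kb and CRELD2 had 67.2 per kb, and both lay below the median of all genes. Of the sensors and transcription factors, XBP1, whose mRNA is cut by IRE1 to give the active factor, had 727 per kb. ATF6, a membrane-bound factor released by cleavage in the Golgi, had 256 per kb. CREB3L2, a related membrane-bound factor, had 236 per kb. ERN1, which encodes IRE1 itself, had 58.8 per kb, at percentile 33.9. The level of the substrate XBP1 was thus above that of the enzyme that cuts it.

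**Figure D2:**
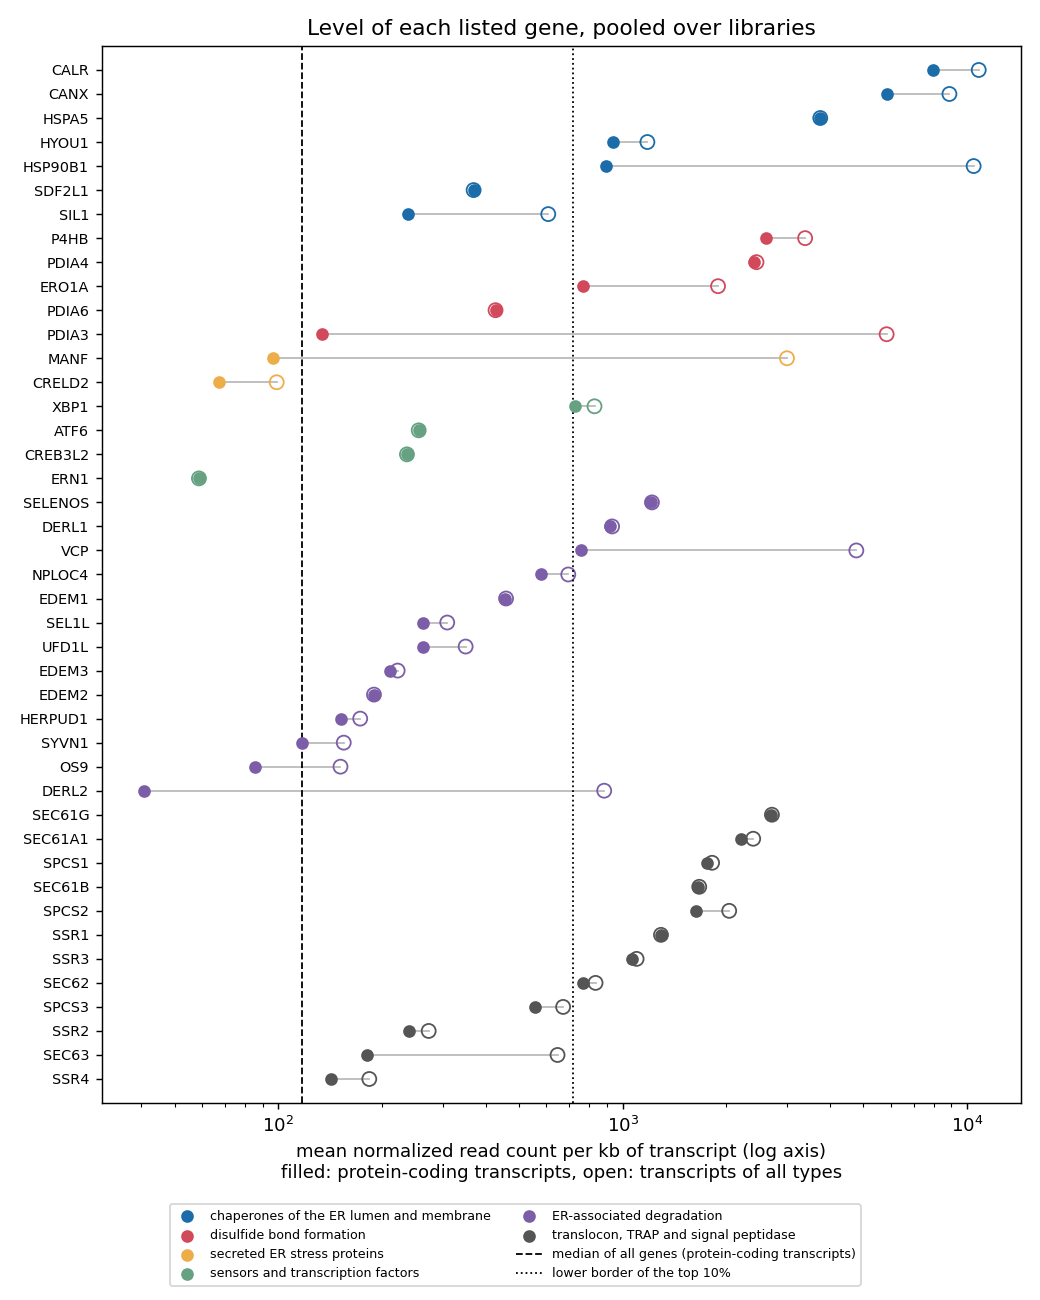
Level of each of the 43 genes, as mean normalized read count per kb on a log axis, grouped by role, with filled points for protein-coding transcripts and open points for transcripts of all types. The dashed line marks the median of all genes (117 per kb) and the dotted line the border of the top 10% (716 per kb), both for protein-coding transcripts, and the long grey lines of HSP90B1, PDIA3, MANF, DERL2 and VCP show where the transcript type decides the level.

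The 12 genes of translocation and signal peptide cleavage all lay above the median of all genes with a median of 1177 per kb and 8 in the top 10%. This was the highest median of the roles for protein-coding transcripts only. With all types it was 1194 per kb, under the 3745 of the chaperones and the 2445 of the disulfide genes. It was also under the 1549 of the secreted proteins, a median that rests on MANF. All 3 subunits of the SEC61 channel were in the top 10%. SEC61G had 2698 per kb, SEC61A1, the pore itself, 2208 per kb and SEC61B 1652 per kb. The accessory proteins of post-translational import were lower, with 765 per kb for SEC62 and 181 per kb for SEC63. With all types SEC62 had 834 and SEC63 647 per kb, so the gap between them depends on the transcript type. Signal peptidase subunits had 1759 per kb for SPCS1, 1629 per kb for SPCS2 and 555 per kb for SPCS3. The 4 subunits of the TRAP complex, which sits beside the channel, formed a high and a low pair. SSR1 had 1291 and SSR3 1063 per kb, while SSR2 had 239 and SSR4 142 per kb.

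The 13 listed genes of ERAD ran from 40.6 to 1205 per kb with a median of 262 per kb. At the top stood SELENOS, a selenoprotein that brings VCP to the membrane, with 1205 per kb. DERL1, a channel-like membrane protein, had 915 per kb. VCP, the ATPase that pulls substrates out of the membrane, had 755 per kb. Its cofactors differed, with 578 per kb for NPLOC4 and 262 per kb for UFD1L, although their proteins act as a pair. SEL1L, the adaptor of the HRD1 ligase, had 263 per kb. The ligase gene SYVN1 (HRD1) had 117 per kb, just below the median of all genes. HERPUD1, a stress-induced membrane partner of this ligase, had 152 per kb. The mannosidase-like proteins that mark glycoproteins for disposal had 454 per kb for EDEM1, 211 per kb for EDEM3 and 189 per kb for EDEM2. OS9, a lectin that reads this mark, had 85.3 per kb, and DERL2, a relative of DERL1, had the lowest level of the list, 40.6 per kb. Genes in the middle of this order differ little, and without replicates their order is not fixed. Its ends hold for protein-coding transcripts only. With all types VCP stood at 4768 per kb, above SELENOS with 1215 per kb. DERL2 then had 883 per kb and was not the lowest of the list, as ERN1 had 58.8 per kb.

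The 10 genes with an ERSE or ERSE-II match had levels from 67.2 to 7981 per kb with a median of 810, and 6 lay in the top 10%. The 29 listed genes whose windows were searched and held no match had levels from 40.6 to 2698 per kb with a median of 454, and 12 lay in the top 10%. The ranges overlap over most of their length. With transcripts of all types the medians were 1003 and 695 per kb.

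The share of reads on protein-coding transcripts set several of these levels. Reads of spliced, intron-retaining and decay-prone transcripts of a gene overlap, and the estimate divides them. Over all 43 genes, 73.4% of the mean normalized read count lay on protein-coding transcripts, against 88.2% over the 12120 genes. The median share per gene was 96.2%, against 98.8%. In 7 genes the share was under 50% (16.3%, against 9.46% of all genes). These 7 were PDIA3, MANF, HSP90B1, DERL2, VCP, SSR4 and UFD1L, and they come from 5 of the 6 roles.

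**Figure D3:**
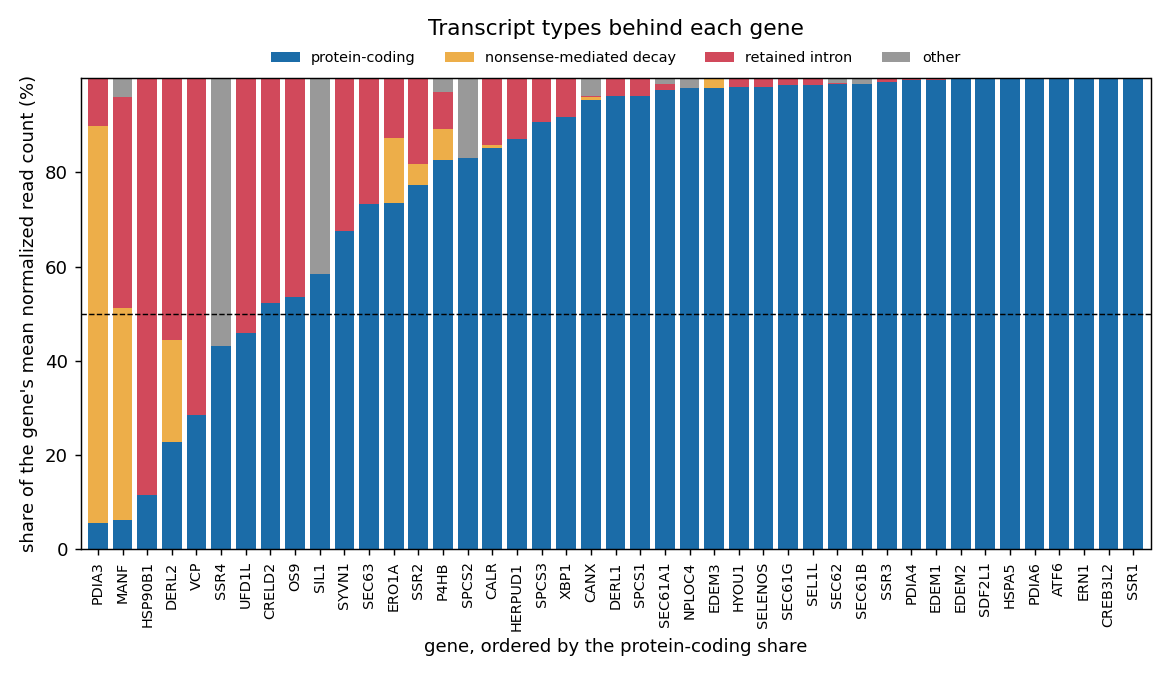
Share of each gene's mean normalized read count, in percent, on protein-coding, nonsense-mediated decay, retained-intron and other transcripts, with 1 stacked bar per gene ordered by the protein-coding share. The dashed line marks 50%, and PDIA3, MANF, HSP90B1, DERL2, VCP, SSR4 and UFD1L lie below it.

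HSP90B1 had most of its reads on HSP90B1-003, a transcript of 3032 bases annotated as retained intron, with a mean normalized read count of 13956 (71.9% of the gene). The main protein-coding transcript HSP90B1-001 had 2066 (10.6%). By GENCODE release 44 on hg38, HSP90B1-003 shares 16 of the 17 introns of HSP90B1-001 and keeps the other one, 277 bases at chr12:103942797-103943073, plus strand. The lengths of 3032 and 2858 bases in the table lie closer together than 277 bases, so the pair also differs outside this intron. The borders of the kept intron are shown with intron bases in capitals, since HSP90B1-003 holds those bases and HSP90B1-001 does not.
HSP90B1 5′ border, chr12:103942782-103942811, plus strand: tccagcagaaaagagGTGAGATGAACTCAT
HSP90B1 3′ border, chr12:103943059-103943088, plus strand: TTCTTAATTTTGTAGgctgaatcttctcca
With all types counted, the level of HSP90B1 was 10447 in place of 894 per kb, next to CALR with 10808. Division by length gives short transcripts a large part of this sum. The retained-intron transcripts HSP90B1-011, HSP90B1-009 and HSP90B1-010, of 581, 698 and 728 bases, had 2134, 1453 and 1363 per kb. They held only 6.39%, 5.22% and 5.11% of the gene's reads, so the place next to CALR depends on this measure.

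VCP had the same form. VCP-005, annotated as retained intron, had a mean normalized read count of 6947 (61.5%), against 3193 (28.3%) for VCP-001. It shares 15 of 16 introns with VCP-001 and keeps a short one of 78 bases at chr9:35062139-35062216, minus strand.
VCP 5′ border, chr9:35062202-35062231, minus strand: cccaaaagagagaaaGTAGGAGCTTACCTG
VCP 3′ border, chr9:35062124-35062153, minus strand: ATCCTGTTCTGGCAGactcatggcgaggtg
With all types the level of VCP was 4768 per kb, against 755 from protein-coding transcripts alone. Besides the kept intron, VCP-005 is shorter than VCP-001, 2942 bases against 4370 in the table, so the pair also differs outside this intron.

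PDIA3 had 76.3% of its reads on PDIA3-004, annotated for nonsense-mediated decay, with a mean normalized read count of 6992, against 498 (5.43%) for the protein-coding PDIA3-001. PDIA3-004 carries an additional exon of 175 bases at chr15:43751584-43751758, plus strand. It is also shorter, 2107 bases against 3727 in the table. MANF had 45.0% of its reads on MANF-003, also annotated for decay and with an additional exon of 138 bases at chr3:51386909-51387046, plus strand, and 44.8% on the short retained-intron transcript MANF-004. The protein-coding MANF-001 had 6.10%. With all types, PDIA3 stood at 5838 per kb and MANF at 2998 per kb, so the low places of both genes above hold for the protein-coding rows only. DERL2 moved from 40.6 to 883 per kb, and its reads lay mostly on the short transcripts DERL2-013 (46.9%) and DERL2-011 (18.9%). Of 701 and 570 bases, these had 506.5 and 251 per kb, while MANF-004, of 436 bases, had 1879 per kb. The levels of DERL2 and MANF with all types thus rest largely on division by the lengths of short transcripts. SSR4 and UFD1L moved less, to 184 and 350 per kb. In all, 10 of the 43 genes (23.3%) had a level over 1.5-fold higher with all types, against 21.6% of all genes, and the other 5 were SEC63, SIL1, ERO1A, OS9 and CANX. Whether these transcripts were present as annotated or received reads of the spliced mRNA in the estimate was not tested.

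Among protein-coding transcripts alone, 32 of the 43 genes had more than 1 listed (74.4%, against 63.3% of all genes). In 3 of the 43 genes the leading one held under 50% of the reads (6.98%, against 8.70% of all genes). SPCS2 was divided most. SPCS2-008 held 33.4%, SPCS2-002 25.2%, SPCS2-001 21.9%, SPCS2-003 12.6%, SPCS2-004 6.15% and SPCS2-201 0.751%. SYVN1 was divided between SYVN1-002 with 43.6% and SYVN1-001 with 39.8%, ahead of SYVN1-004 with 12.7% and SYVN1-011 with 3.87%. SIL1 had 44.8% on SIL1-003, 37.3% on SIL1-001, 15.6% on SIL1-002 and 2.36% on SIL1-004. In these genes no single isoform stands for the gene.

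XBP1 was listed with 4 protein-coding transcripts. XBP1-201, of 1794 bases, had a mean normalized read count of 776, or 59.1% of the coding reads. XBP1-001, of 1850 bases, had 446, or 33.9%. XBP1-003 had 67.5 and XBP1-006 had 24.3. XBP1-201 was not found in GENCODE release 44, so whether it lacks the intron that IRE1 removes is not given here, and the shares are not a measure of IRE1 activity.

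**Figure D4:**
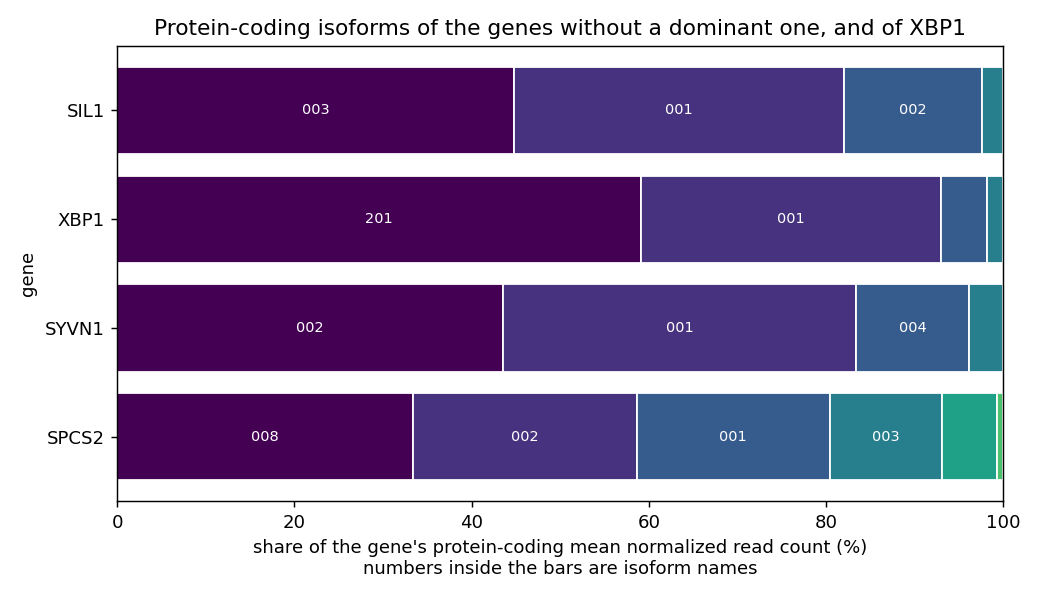
Share of each gene's protein-coding mean normalized read count, in percent, held by its listed isoforms, for SIL1, SYVN1 and SPCS2, where the leading isoform has under 50%, and for XBP1. Numbers in the bars are isoform names, and the leading share runs from 33.4% in SPCS2 to 59.1% in XBP1.

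Since HuR binds AU-rich elements, the pentamer AUUUA was counted on the sense strand in the 3′ untranslated region of the leading protein-coding transcript, where GENCODE release 44 holds it. This was possible for 40 of the 43 genes and not for XBP1, SPCS1 and SPCS2. In some genes this transcript held a small share of all the gene's reads, as in PDIA3 (5.43%) and HSP90B1 (10.6%). Its release 44 form can also differ from the one in the table, as for VCP-001 with 3746 bases against 4370. At least 1 pentamer occurred in 28 of the 40 (70.0%), against 72.8% of 11602 genes, with 2.20 and 2.32 pentamers per kb of region. The heptamer UAUUUAU, which contains it, occurred in 13 of the 40 (32.5%), against 35.1%. The regions had a median length of 1254 bases, against 1259, so the genes were close to all genes in each of these measures. EDEM3 held most pentamers, 20 in 3570 bases, followed by SPCS3 with 16 in 3915 and SEL1L with 15 in 5425. HSPA5 held 4 and CANX 6. CALR, P4HB, SDF2L1, HERPUD1, CRELD2, OS9, SIL1, EDEM2, SEC61G, SSR2, SSR4 and UFD1L held none. A pentamer is a match of letters and not a site shown to bind HuR. The paper also names uridine-rich sequences as HuR sites, and these were not counted. Its sequencing of RNA bound to HuR in MDA-MB-231 cells was not used here.

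**Figure D5:**
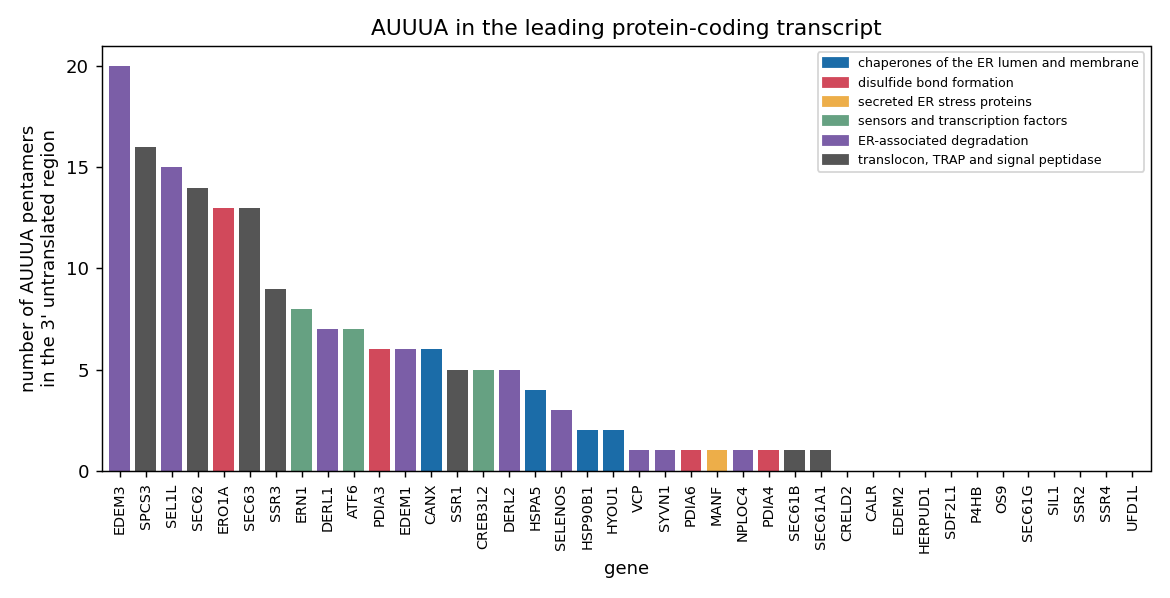
Number of AUUUA pentamers in the 3′ untranslated region of the leading protein-coding transcript, 1 bar per gene, coloured by role, for the 40 genes with a region in GENCODE release 44. The counts run from 20 in EDEM3 to none in 12 genes.

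Further genes of the pathway were taken from a fixed list of 36, all of which were listed. Of these, 33 lay above the median of all genes and 15 in the top 10%, with a median level of 605 per kb. The highest were RPN2, a subunit of the enzyme that attaches N-glycans, with 5221 per kb, ATF4, the transcription factor made more when PERK is active, with 3918 per kb, and TXNDC5, a disulfide isomerase, with 2164 per kb. The lowest were CREB3 with 109 per kb, UGGT2 with 49.0 per kb and SEC61A2 with 25.9 per kb. With all transcript types CREB3 had 636 per kb and was not among the lowest 3, as only 20.2% of its reads lay on protein-coding transcripts. SEC61A2, a close relative of SEC61A1, thus had a level far under the 2208 per kb of SEC61A1, although reads shared by the pair could not be told apart.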

How the data were processed

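Libraries of MDA-MB-231 cells were made with an mRNA kit. Per the paper's methods and the labels, the authors mapped reads with STAR to GENCODE release 24 transcripts (hg38), estimated reads per transcript with eXpress and normalized them with DESeq2; versions are not given in the sources used here. The value used is a signal, the mean normalized read count that the authors deposited per transcript. The deposited table also holds the log2 fold change, p-value and q-value of the authors' own comparison of KH-3 with DMSO; these were not used, so no treatment effect is given here.

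Levels, percentiles, shares and motif matches were computed with Python 3.11.15, numpy 2.4.6, pandas 2.3.3 and matplotlib 3.10.9 and tested on simulated data. No test was run. Transcripts were matched by ID to GENCODE release 44, which held 175 of 182, with 108 of the same length as in the table. All genes of the list were named; isoforms were given where the leading one held under 50% of the reads, with XBP1 and, added after the values were seen, the genes with a protein-coding share under 50%. Of the pathway list the 3 highest and 3 lowest were named. Genes, lists and measures were chosen with earlier results of these data known. AUUUA counts, transcript-type shares and the comparison of introns were added after the data were seen.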

Additional observations from a re-analysis of the deposited data

How the results depend on the processing

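Of 26 alternative settings, 23 stayed close to the value reported. With the leading transcript only, all transcript types, an effective length, reference genes with a summed mean of at least 100, no division by length or added gene symbols, 33 to 39 genes lay above the median of all genes, 16 to 20 lay in the top 10%, and the median percentile ran from 83.0 to 88.5. Settings that moved a count by over 1.5 times were a minimum mean of 50 per transcript, with which 20 genes in place of 32 had more than 1 protein-coding transcript, all transcript types, with which the leading transcript held under 50% of the reads in 9 genes in place of 3, and 1 mismatch in ERSE, with which 12 genes in place of 7 held a match (30.8%, against 1.89% of all genes). The first 2 follow from the transcripts left out or added. In the top 10%, 17 genes were found both with protein-coding and with all types.

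No paired analysis was possible because the table holds 1 mean over libraries and no value per library; for the same reason no run without 1 library was made, and depth and replicate error are unknown. A planned count of ER retrieval signals at protein ends was not run, since no protein table was used here.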

Other observations

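Outside the list, 19 genes of the table held an ERSE or ERSE-II match in a promoter window, and none of them was among the 36 further pathway genes, 31 of which had a window. The highest levels were those of PLS3 with 920 per kb, SERP1 with 806 and SHCBP1 with 655. After their values were seen, 5 of the 19 were picked for a known role in the ER or Golgi, so they do not stand for the other 14. These 5 include SERP1, a stabiliser of membrane proteins at the translocon, NUCB1, a calcium-binding protein of the Golgi, with 465 per kb, and ERO1B, the second ER oxidase, with 87.2 per kb, well under the 765 per kb of ERO1A. FICD, which modifies HSPA5 with AMP, had 57.7 per kb, and ALG12, a mannosyltransferase of N-glycan assembly, 83.9 per kb. The median level of the 19 was 141 per kb, and 10 lay above the median of all genes.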
